A study of Mus musculus with 9 samples.

Results

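The genes described here encode the subunits of voltage-gated calcium, sodium and potassium channels and of the other potassium channels of the mouse. They were taken from the array annotation by symbol: every gene beginning with Kcn, with Cacna, Cacnb or Cacng, or with Scn and ending in a or b, without Kcnj11, the pore of the beta cell ATP-sensitive potassium channel. The rule found 98 genes among 15967 genes with a symbol on the array, of which 70 were potassium, 21 calcium and 7 sodium channel genes. One probe stood for each gene, that with the highest mean over the 9 arrays. A gene was tested where its probe lay above background noise on all 3 arrays of at least 1 group, which 54 of the 98 channel genes (55.1%) and 9913 of all 15967 genes (62.1%) did.

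Illumina bead arrays had been hybridized with RNA from 3 groups of adult mouse pancreatic samples, 3 arrays per group. The induced cells came from Rag-/- mice, which lack mature lymphocytes; their pancreas had received an adenovirus labelled M3, and cells carrying green fluorescent protein (GFP) were sorted 1 month later, about 5000 per sample, of which 22% were insulin-positive per the labels. The labels leave M3 unexplained; from the literature it is known as a mix of transcription factor genes, Pdx1 and Neurog3 among them. Islet samples were 4 to 5 hand-picked islets of Pdx-GFP transgenic mice, with all islet cell types and their vessels. Non-islet samples were about 10000 cells each of the pancreatic tissue that remained once islets had been taken from such animals, and their label spells the line pdxa-gfp. The induced cells thus differed from both other groups in mouse line, virus and sorting as well as in cell type, and these cannot be told apart. The labels do not say whether each of a group's 3 samples was taken from its own animal; p-values here reflect sample-to-sample spread that may be technical only, and the number of arrays limits their precision. In such bulk samples, fewer cells of a type and less RNA per cell cannot be told apart.

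In a beta cell, glucose metabolism closes ATP-sensitive potassium channels, the membrane depolarizes, and voltage-gated calcium channels open to let in the calcium that triggers insulin release. Voltage-gated and calcium-activated potassium channels then repolarize the membrane, and voltage-gated sodium channels can sharpen the upstroke of the action potential. In acinar and duct cells, which secrete enzymes and bicarbonate, potassium channels instead keep the membrane potential that drives fluid secretion.

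Signal is given below as the deposited, background-subtracted intensity after quantile normalization, so that values under 0 occur; differences are in log2(signal + 11.9), where the offset of 11.9 shrinks the differences of dim genes. Errors of log2 differences are standard errors, and adjusted p-values are from limma with Benjamini-Hochberg adjustment over all 13928 probes that passed the filter. Signals of different probes are not comparable, and no gene's level is set against another's. The background limit lay between 2.43 and 2.56 in deposited units on the induced arrays, between 3.10 and 3.37 on the islet arrays and between 7.24 and 7.93 on the non-islet arrays, so that a dim gene could pass less easily in non-islet cells. Summed acinar marker signal was 51200 to 56300 on the induced arrays, 57900 to 58900 on the islet arrays and 66100 to 68100 on the non-islet arrays, and all 8 measured acinar markers were above background on all 3 arrays of every group. The enzyme genes Cpa1, Cela1, Amy2a5, Ctrb1 and Cel, which make up most of this sum, differed by -0.39 to 0.17 between groups. The acinar transcription factor Ptf1a had means of 289 in induced cells, 44.5 in islets and 1555 in non-islet cells, and Rbpjl 153, 45.1 and 1474. Another enzyme gene, Prss2, had means of 2088, 1671 and 9166 in the same order. Beta cell markers summed to 8330 to 12100 in induced cells, 25400 to 26700 in islets and 121 to 186 in non-islet cells. Duct markers summed to 5810 to 6030, 1380 to 1520 and 2050 to 2120 in the same order. The part of these other cell types in the differences below was not tested.

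Of the 98 channel genes, 37 were above background on all 3 induced arrays, 43 on all 3 islet arrays and 14 on all 3 non-islet arrays. Per array, 41 to 46 of them were above background in induced cells, 49 to 51 in islets and 18 to 24 in non-islet cells. Of all 24613 probes, 13476 to 13689, 13527 to 13764 and 9210 to 9933 were, in the same order. Fewer probes thus passed in non-islet cells over the whole array too. The shares of all genes with the patterns below were not counted. Induced cells and islets shared 18 genes that were not above background on all non-islet arrays, among them the calcium channel pores Cacna1a, Cacna1c, Cacna1d and Cacna1h. Another 8 genes passed in induced cells alone: Cacna1f, Cacng4, Kcnc1, Kcne2, Kcnip3, Kcnj3, Kcnmb1 and Scn3a. Islets alone had 14, including the silent subunit Kcnf1 and the vascular inward rectifier Kcnj8, and non-islet cells alone had the calcium channel pores Cacna1b and Cacna1g. All groups shared 10 genes, Kcna6 passed in induced and non-islet cells, and Kcnc2 in islets and non-islet cells. The remaining 44 genes did not pass: 35 were above background on no array, and 9 on some arrays but on no whole group, though another probe of Kcnk5 was above background on all 3 induced arrays. They include Cacna1e, the R-type calcium channel pore, Kcna5, Kcnn3, Kcnj5, Kcnj15, Kcnj16, Kcne1, Scn1a and Scn3b. At the edge of the filter, the dimmest array lay 1.65 noise SD above 0 for Kcne2 and Kcns1, 1.67 for Kcng4 and 1.69 for Cacna1f, all kept, and 1.55 for Kcnq3, 1.52 for Kcnk5, 1.44 for Scn11a and 1.39 for Kcnn3, all left out. Of 38 channel genes listed from textbook knowledge of islets, 28 had a probe by symbol and 19 passed; the others with no probe by symbol were not analysed here.

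Set against islets, induced cells had more signal for the T-type calcium channel pore Cacna1h, the L-type pore Cacna1c, the acid-sensitive leak channel Kcnk3, the epithelial potassium channel Kcnq1, and Kcnip3 and Kcnc1, which were not above background in islets. Islets had more for the auxiliary subunits Kcnip1, Kcnmb2, Cacna2d1, Cacnb2 and Kcnab3, the large-conductance calcium-activated channel Kcnma1, and Kcnf1. Of the 54 genes, 11 were higher in induced cells (20.4%, against 24.1% of all genes tested), 17 were lower (31.5%, against 27.3%) and 26 did not pass the test. The median difference was -0.09 over the channel genes and -0.04 over all genes. At least 2-fold differences on this scale were found for 4 of the higher and 5 of the lower genes, and no 2-fold share of all genes was taken. The shares called by the test are close to those of all genes. Counts by role given below rest on few genes each and are to be read beside these shares. All 28 calls also stood when the arrays were scaled to equal noise. Of the 11 higher genes, 5 had no islet array above background: Cacng4, Kcnc1, Kcnip3, Kcnj3 and Kcnmb1. Of the 17 lower genes, 5 had no induced array above it: Kcnf1, Kcnh5, Kcnip4, Kcnj8 and Kcnj12. These genes, with Kcnab2 and Kcnk12, passed the filter only through the group where they were high. Their p-values for that group being higher are thus no separate support. The same holds against non-islet cells for genes that passed only through the group where they were higher. Examples are Kcnf1 in islets, Kcnc1 and Kcnip3 in induced cells, and Cacna1b and Cacna1g in non-islet cells.

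**Figure D1:**
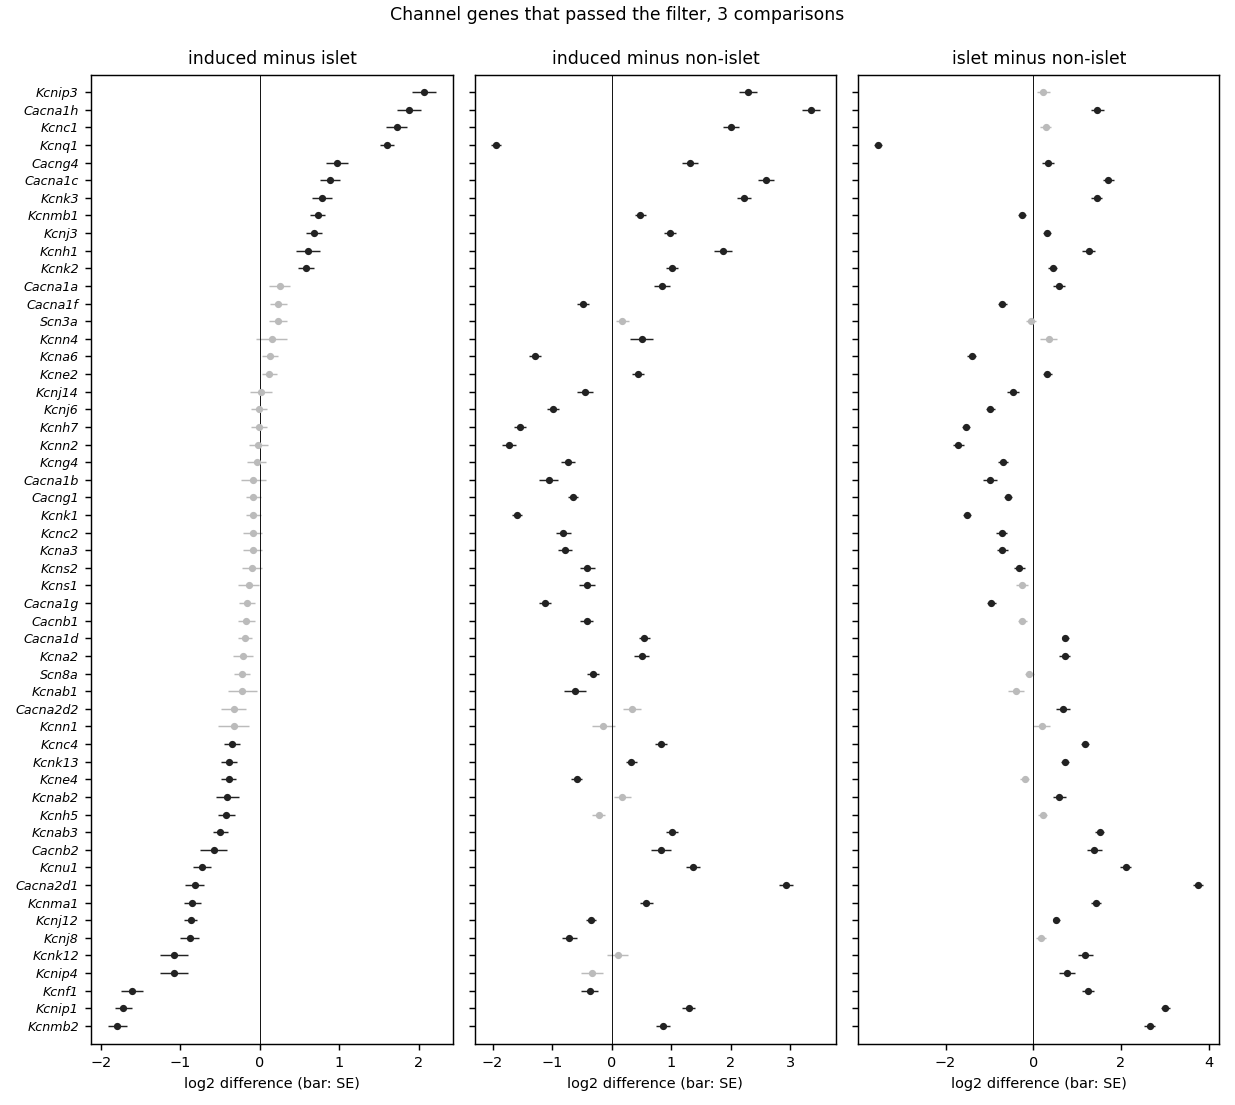
Log2 differences of signal + 11.9 (x axis, with standard errors) of the 54 channel genes that passed the filter (rows), for induced minus islet, induced minus non-islet and islet minus non-islet. Black points have an adjusted p under 0.05 and grey points do not: 28 of 54 genes are black in the first panel, 47 in the second and 42 in the third.

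Voltage-gated potassium channel pores numbered 20 genes, of which 10 passed; against islets, 3 of them were higher in induced cells and 2 lower. Kcnc1, a fast-activating channel of neurons that fire rapidly, had signals of 26.2, 23.1 and 25.8 on the induced arrays, -0.876, -1.80 and 0.716 on the islet arrays and -3.39, -0.655 and -3.77 on the non-islet arrays. All induced values lay above all others, and no islet or non-islet array was above background. The level was at least 2.54-fold higher in induced cells than in islets (adjusted p = 9.99e-07) and at least 1.76-fold higher than in non-islet cells (adjusted p = 1.04e-07). Kcnh1, the ether-a-go-go channel, measured 39.7, 34.8 and 35.1 in induced cells, 19.3, 20.5 and 19.4 in islets and 2.60, 4.20 and -1.97 in non-islet cells. The groups did not overlap; induced cells exceeded islets by 0.61 ± 0.15 (adjusted p = 0.00617). In non-islet cells Kcnh1 was not above background on any array, so that induced cells were at least 2.30-fold (adjusted p = 5.97e-07) and islets at least 1.51-fold (adjusted p = 1.72e-05) above them.

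Kcnq1 is the channel that in epithelia recycles potassium across the membrane. Its signal was 99.2, 105 and 108 in induced cells, 26.4, 24.4 and 28.0 in islets and 425, 439.6 and 432 in non-islet cells. On this scale induced cells lay between the other groups with no overlap, above islets by 1.60 ± 0.08 (adjusted p = 4.24e-08), but at equal noise they lay above non-islet cells, by 0.44 (adjusted p = 0.000252). A second Kcnq1 probe differed in the same directions, by 0.79 between induced cells and islets and -2.34 between islets and non-islet cells. The acinar markers Ptf1a, Rbpjl and Prss2 had the same order of groups, Prss2 with means of 2088, 1671 and 9166 in induced, islet and non-islet cells. The other measured acinar markers, Cpa1, Cela1, Amy2a5, Ctrb1 and Cel, did not. They make up most of the summed acinar signal, which was higher in islets than in induced cells. Among the 7 measured duct markers, Sox9 (means of 194, 43.9 and 330.4 in induced, islet and non-islet cells) and Muc1 (479, 28.2 and 933) had this order too. The other duct markers, Krt19, Krt7, Krt8, Cftr and Cldn3, had their highest mean in induced cells, as Krt8 did (3734, 371 and 662.5). The part of acinar and duct cells in the Kcnq1 differences was not tested. The 2 lower genes were dim. Kcnc4, another fast channel, measured 6.77, 7.33 and 7.63 in induced cells and 12.1, 12.9 and 12.3 in islets, a difference of -0.35 ± 0.10 (adjusted p = 0.0105). Kcnh5, of the ether-a-go-go type too, was above background in islets alone, at least 1.06-fold over induced cells, with an adjusted p of 0.00657, which became 0.0607 when arrays were scaled to a common median; over all alternatives the adjusted p ranged from 0.000556 to 0.0607. Kcna2, Kcna3, Kcna6, Kcnc2 and Kcnh7 did not pass the test between induced cells and islets, with differences from -0.21 to 0.13, although another Kcna6 probe was lower in induced cells, at -0.70 (adjusted p = 0.00326).

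Silent subunits form no channel alone and modify the delayed rectifiers they join. Of 8, 4 passed. Kcnf1 measured 1.60, 1.98 and 0.177 in induced cells, 28.8, 26.8 and 29.5 in islets and 3.05, 2.97 and 9.92 in non-islet cells. Islet values lay well above all others, and no induced array was above background. Islets were at least 2.76-fold higher than induced cells (adjusted p = 2.89e-06) and 1.25 ± 0.14 higher than non-islet cells (adjusted p = 9.57e-06). Kcng4, Kcns1 and Kcns2 did not pass the test between induced cells and islets, with differences of -0.04, -0.14 and -0.10.

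Auxiliary potassium channel subunits gave 10 tested genes of 14; 2 of these were higher in induced cells than in islets and 6 were lower. KChIP proteins are calcium-binding partners of A-type potassium channels, and the protein of Kcnip3 is also known as a transcriptional repressor, DREAM. Kcnip3 measured 46.3, 42.2 and 39.7 in induced cells, 0.689, 1.04 and 1.62 in islets and 0.486, 1.35 and -3.51 in non-islet cells. Only the induced arrays were above background, at least 3.76-fold over islets (adjusted p = 6.42e-07) and 2.60-fold over non-islet cells (adjusted p = 9.97e-08). Kcnip1 differed the other way between induced cells and islets, with 48.8, 50.9 and 49.4 in induced cells, 200.3, 198 and 177 in islets and 9.87, 15.9 and 14.7 in non-islet cells. It was lower in induced cells than in islets, with a difference of -1.72 ± 0.11 (adjusted p = 1.71e-07) and the groups did not overlap. Kcnip4 measured -2.94, -1.81 and -0.238 in induced cells and 8.02, 9.33 and 11.9 in islets, at least 1.48-fold higher in islets (adjusted p = 0.000429).

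The promoter windows of Kcnc1, Kcnip3, Kcnip1 and Kcnf1 are shown because they are among the genes with the largest differences between induced cells and islets, Kcnc1 and Kcnip3 being higher in induced cells and Kcnip1 and Kcnf1 in islets; they were chosen after their values were seen. They are RefSeq sequences of build GRCm38.p6, from 250 bases before to 50 after an annotated start, read 5′ to 3′ on the gene's strand, and capitals mark motif matches. The Kcnc1 window lies at chr7:46396218-46396517 on the plus strand, the Kcnip3 window shown at chr2:127522045-127522344 on the minus strand, the Kcnip1 window shown at chr11:33843637-33843936 on the minus strand and the Kcnf1 window at chr12:17176839-17177138 on the minus strand. Kcnip3 and Kcnip1 have 3 annotated windows each; the one printed was chosen after its matches were seen, and the probes do not say which start was used.
Kcnc1: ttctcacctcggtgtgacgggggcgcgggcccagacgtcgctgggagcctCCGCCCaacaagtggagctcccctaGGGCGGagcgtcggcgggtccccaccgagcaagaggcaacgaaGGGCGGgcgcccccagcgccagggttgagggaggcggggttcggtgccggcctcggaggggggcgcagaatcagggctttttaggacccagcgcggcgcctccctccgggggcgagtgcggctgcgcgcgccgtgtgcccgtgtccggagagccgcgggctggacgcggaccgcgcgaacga
Kcnip3: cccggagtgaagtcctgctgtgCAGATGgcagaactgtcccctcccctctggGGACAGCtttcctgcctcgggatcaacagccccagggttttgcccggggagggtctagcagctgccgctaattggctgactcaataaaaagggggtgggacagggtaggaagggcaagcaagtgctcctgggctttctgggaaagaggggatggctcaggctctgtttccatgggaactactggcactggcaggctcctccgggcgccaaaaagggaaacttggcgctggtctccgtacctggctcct
Kcnip1: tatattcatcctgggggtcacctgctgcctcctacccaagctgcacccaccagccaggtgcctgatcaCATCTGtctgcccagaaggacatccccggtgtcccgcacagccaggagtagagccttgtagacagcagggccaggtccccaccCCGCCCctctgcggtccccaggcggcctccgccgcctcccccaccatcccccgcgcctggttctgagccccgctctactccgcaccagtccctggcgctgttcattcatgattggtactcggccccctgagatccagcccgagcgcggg
Kcnf1: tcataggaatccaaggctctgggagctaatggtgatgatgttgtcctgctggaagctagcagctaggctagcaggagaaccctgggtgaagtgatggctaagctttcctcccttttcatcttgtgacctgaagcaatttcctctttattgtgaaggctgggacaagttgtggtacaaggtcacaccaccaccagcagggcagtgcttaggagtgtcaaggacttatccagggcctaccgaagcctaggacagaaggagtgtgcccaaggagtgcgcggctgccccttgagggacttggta
The letters searched on both strands were CATCTG (an E-box bound by NeuroD-type factors), GGGCGG (GC box), TGACGTCA (cAMP response element), TCAGCACC and GGACAGC (the parts of the REST element). No match overlaps another in the windows printed. Kcnc1 holds 3 GC boxes, Kcnip3 1 E-box and 1 GGACAGC, Kcnip1 1 E-box and 1 GC box, and Kcnf1 none of the letters. The other Kcnip3 windows hold 1 and 2 GC boxes and no E-box or GGACAGC, and of the other Kcnip1 windows 1 holds 1 E-box and the other no match. The E-box occurs in 17.2% of all 32851 windows and in 24.6% of the 65 windows of the 41 tested channel genes that have one. The GC box occurs in 35.7% and 46.2%, GGACAGC in 6.56% and 6.15%, TCAGCACC in 1.65% and none, and TGACGTCA in 1.79% and none. A match is a string of letters and says nothing of binding.

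The beta subunits of the large-conductance channel diverged. Kcnmb2, which inactivates that channel, measured 5.41, 6.67 and 7.97 in induced cells, 59.2, 50.6 and 47.2 in islets and 0.135, -2.54 and -2.49 in non-islet cells. It was lower in induced cells than in islets, with a difference of -1.79 ± 0.12 (adjusted p = 3.57e-07), with all 3 groups apart. Kcnmb1, which raises the channel's calcium sensitivity and is known from smooth muscle, was above background on the induced arrays alone, at 7.95, 5.62 and 7.84, and at least 1.31-fold over islets (adjusted p = 7.07e-05). The shaker channel partner Kcnab3 measured 35.0, 36.1 and 34.3 in induced cells, 55.2, 52.1 and 56.4 in islets and 14.3, 10.4 and 9.83 in non-islet cells, lower in induced cells than in islets, with a difference of -0.50 ± 0.09 (adjusted p = 0.00106). Kcne4, a single-pass inhibitor of several channels, differed by -0.39 (adjusted p = 0.00541). Kcnab2 differed by -0.41 with an adjusted p of 0.0359, which rose to between 0.0629 and 0.159 on leaving out any of 5 arrays (induced 1 and 2, islets 1, 2 and 3). Kcnab1 and Kcne2 did not pass, with differences of -0.22 and 0.12.

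The calcium- and sodium-activated channels were counted by symbol together with Kcnu1, a relative that is not itself calcium-activated. Of these, 5 of 7 passed, 2 were lower in induced cells than in islets (Kcnma1 and Kcnu1) and none higher. Kcnma1, the pore of the large-conductance channel, measured 3.90, 5.85 and 2.83 in induced cells, 14.8, 17.7 and 18.7 in islets and -1.65, -1.75 and -0.0595 in non-islet cells. It was lower in induced cells, with a difference of -0.85 ± 0.11 (adjusted p = 5.26e-05). Kcnu1, the related channel known from sperm, measured 23.3, 23.8 and 26.1 in induced cells, 51.0, 47.9 and 46.7 in islets and 0.760, 1.10 and 4.97 in non-islet cells. The groups did not overlap and the difference between induced cells and islets was -0.73 ± 0.12 (adjusted p = 0.000269). The small-conductance channels Kcnn1 and Kcnn2 and the intermediate one, Kcnn4, did not pass this test, with differences of -0.33, -0.02 and 0.15; Kcnn4 measured 4.47, 8.40 and 3.76 in induced cells and 2.87, 5.34 and 3.02 in islets. Kcnn1 measured 2.87, 0.742 and 1.44 in induced cells and 6.24, 3.03 and 6.51 in islets, and all 3 islet arrays but only 1 induced array were above background.

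Inward rectifiers hold the membrane near rest, and 5 of 12 passed. Kcnj3, a subunit of channels opened by G proteins, measured 6.63, 7.43 and 7.60 in induced cells, -0.785, 0.509 and 0.485 in islets and -1.33, -2.07 and -3.23 in non-islet cells. It was above background on the induced arrays alone, at least 1.32-fold over islets (adjusted p = 0.000166). Its partner Kcnj6 measured 7.57, 5.34 and 7.12 in induced cells and 7.57, 7.66 and 5.25 in islets, overlapping, with a difference of -0.01 ± 0.10 (adjusted p = 0.943). Kcnj8, the ATP-sensitive channel pore of vessels, was above background on all islet arrays, at 8.75, 7.80 and 7.68, against 0.121, -1.79 and -1.47 in induced cells, at least 1.37-fold higher in islets (adjusted p = 9.08e-05). Kcnj12, a strong inward rectifier, measured 0.164, -0.453 and 0.925 in induced cells, 9.93, 10.4 and 10.3 in islets and 3.74, 3.07 and 3.67 in non-islet cells. No induced or non-islet array was above background for it, and islets were at least 1.51-fold above induced cells (adjusted p = 6.14e-06). Kcnj14, another inward rectifier, differed by 0.02 and did not pass the test. Endothelial markers moved with these: 9 of 10 were above background on all islet arrays and 4 of 10 on all induced arrays, their summed signal was 2220 to 2260 in islets, 29.2 to 36.9 in induced cells and 316 to 365 in non-islet cells, and Esm1, Tek and Tie1 were above background on no induced array. Pericyte and smooth muscle markers summed to 148 to 163, 44.7 to 52.5 and 98.6 to 119 in the same order, with Pdgfrb above background on all islet and non-islet arrays and on no induced array, and Tagln, Cnn1 and Des on no array of any group. The part of either in the channel differences was not tested.

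K2P channels carry the background leak, and 5 of 9 passed. Kcnk3, which closes in acid, measured 44.1, 47.0 and 45.9 in induced cells, 16.7, 25.0 and 23.8 in islets and 0.589, -1.09 and 1.98 in non-islet cells. It was higher in induced cells than in islets by 0.78 ± 0.12 (adjusted p = 0.000288). Kcnk2, opened by membrane stretch, measured 13.9, 18.9 and 13.6 in induced cells and 5.29, 6.22 and 7.67 in islets, higher by 0.58 ± 0.11 (adjusted p = 0.000836). Kcnk12 and Kcnk13, a pair of halothane-inhibited channels, were lower. Kcnk12 measured 4.50, 0.286 and 2.00 in induced cells and 17.4, 19.4 and 16.7 in islets, a difference of -1.08 ± 0.17 (adjusted p = 0.000347), and Kcnk13 differed by -0.39 ± 0.10 (adjusted p = 0.00643). Kcnk1 measured 76.6, 75.0 and 67.7 in induced cells and 74.5, 79.9 and 79.1 in islets, overlapping, with a difference of -0.08 ± 0.09 (adjusted p = 0.512); scaled to a common median, this became 0.19 (adjusted p = 0.0271).

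Of 8 calcium channel pores, 7 passed; 2 were higher in induced cells than in islets and none was lower. Cacna1h, a T-type pore that opens at low voltage, measured 64.1, 63.6 and 60.5 in induced cells, 6.43, 8.67 and 10.3 in islets and -2.40, -5.97 and -4.82 in non-islet cells. Induced cells exceeded islets by 1.88 ± 0.15 (adjusted p = 1.47e-06), with no overlap. Cacna1c, the L-type pore, measured 51.3, 49.4 and 46.2 in induced cells, 19.1, 22.2 and 22.3 in islets and -3.78, -0.698 and -0.661 in non-islet cells, and differed by 0.88 ± 0.13 (adjusted p = 0.000153). A second Cacna1c probe was above background on islet arrays alone and did not pass the test, at -0.12 between induced cells and islets. Neural and Schwann cell markers summed to 154 to 166 in induced cells, 56.1 to 67.8 in islets and -11.6 to 0.578 in non-islet cells. Egr2 carried the difference between induced cells and islets (means of 119.9 and 12.2), Uchl1 differed by 0.01, and Sox10 was lower in induced cells, at -0.67 (adjusted p = 0.00333). Of the 6 measured, 2 were above background on all induced arrays, and Sox10, S100b, Ngfr and Gfap were not on any. Their part was not tested.

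The other 5 tested pores did not pass the test between induced cells and islets. Cacna1d, the other L-type pore of beta cells, measured 12.5, 15.6 and 13.3 in induced cells, 16.7, 17.5 and 17.9 in islets and 5.75, 4.67 and 6.65 in non-islet cells, a difference of -0.19 ± 0.09 (adjusted p = 0.104). Cacna1a, the P/Q-type pore, measured 20.2, 22.8 and 15.7 in induced cells, 13.7, 16.2 and 13.5 in islets and 9.23, 4.33 and 3.61 in non-islet cells, a difference of 0.25 ± 0.13 (adjusted p = 0.145). The 2 groups overlapped for Cacna1a, and adjusted p over its alternatives ran from 0.00501 to 0.393. Cacna1b, Cacna1f and Cacna1g had differences of -0.08, 0.23 and -0.16.

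Auxiliary calcium channel subunits bring pores to the membrane and set their gating. Of 13, 6 passed, 1 was higher and 2 were lower in induced cells than in islets. Cacna2d1 measured 62.2, 61.8 and 62.9 in induced cells, 126, 130.4 and 102 in islets and -3.25, -0.829 and -2.43 in non-islet cells, with induced minus islet at -0.82 ± 0.12 (adjusted p = 0.000136). Cacnb2 measured 27.0, 28.8 and 27.7 in induced cells, 50.5, 45.1 and 46.6 in islets and 10.0, 5.23 and 18.7 in non-islet cells, with induced minus islet at -0.58 ± 0.17 (adjusted p = 0.0143, and 0.0536 without islet array 1). A second Cacnb2 probe was lower in induced cells too, at -0.34, but also lower in islets than in non-islet cells, at -1.36, the reverse of the first. Cacng4, known chiefly as a partner of glutamate receptors, was above background on the induced arrays alone, at 14.3, 10.9 and 10.7, at least 1.64-fold over islets (adjusted p = 9.92e-05). Cacnb1, the subunit known from skeletal muscle, measured 4.10, 2.00 and 2.28 in induced cells, 4.29, 4.64 and 4.75 in islets and 10.8, 6.45 and 6.26 in non-islet cells. It did not pass the test between induced cells and islets (-0.17), nor did Cacna2d2 (-0.33, adjusted p = 0.108) and Cacng1 (-0.08). The arrays of Cacna2d2 did not overlap between these 2 groups. Its limma adjusted p was 0.00212 with the 2 groups alone, 0.00117 on values as deposited and 0.0151 at equal noise.

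Of 7 sodium channel genes, 2 passed and neither was called between induced cells and islets. Scn3a, a pore subunit found in mouse islet cells, measured 5.65, 3.79 and 4.39 in induced cells, 2.22, 1.59 and 2.55 in islets and 2.69, 4.82 and 0.836 in non-islet cells. It was above background on all 3 induced arrays and on 1 islet array, and did not pass the test against islets, at 0.23 ± 0.11 (adjusted p = 0.10). Scn8a measured 2.38, 3.13 and 4.12 in induced cells, 5.71, 5.66 and 5.68 in islets and 4.60, 7.40 and 8.83 in non-islet cells, and differed from islets by -0.22 ± 0.10 (adjusted p = 0.0984). Both passed at equal noise, Scn3a at 0.21 (adjusted p = 0.0401) and Scn8a at -0.21 (adjusted p = 0.0341), and both with the 2 groups alone (adjusted p = 0.0152 and 0.0188).

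**Figure D2:**
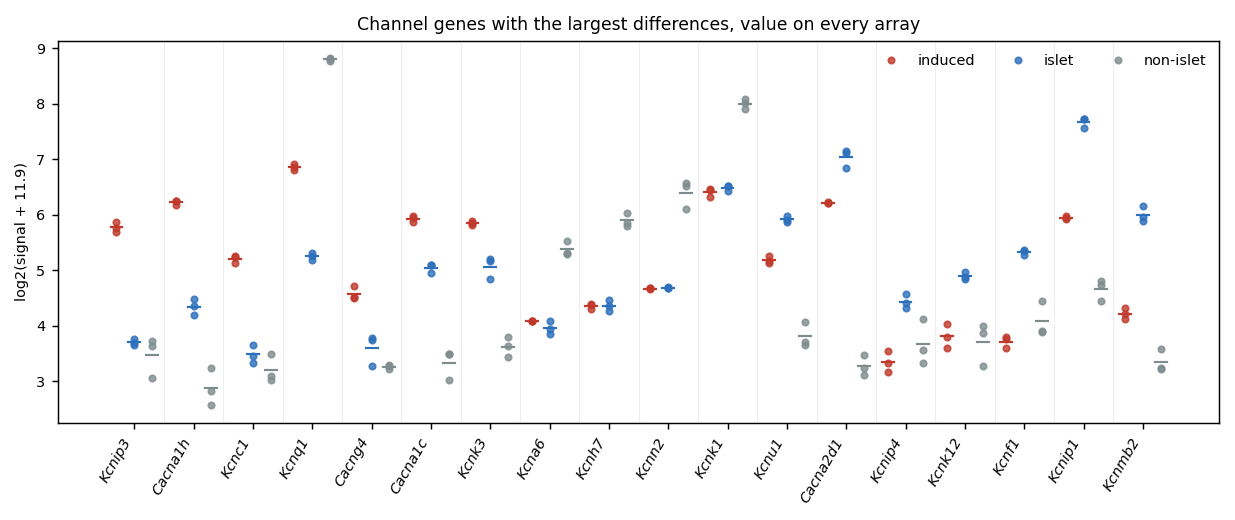
Log2(signal + 11.9) on every array (y axis) for 18 of the channel genes named in the text (x axis, ordered from Kcnip3 to Kcnmb2 by induced minus islet), with induced, islet and non-islet arrays in separate colours, 3 points each and a bar at the mean. Kcnip3, Kcnc1 and Cacna1h stand high in induced cells, and Kcnip1, Kcnf1 and Kcnmb2 in islets; positions of different genes are not comparable.

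Islets, set against non-islet cells, had 4 of 6 tested auxiliary calcium channel subunits higher and 1 lower, and 6 of 10 tested auxiliary potassium channel subunits higher and 1 lower. Calcium channel pores had 4 higher and 3 lower, K2P channels 4 and 1, and calcium- and sodium-activated channels, counted with Kcnu1, 2 and 1. Inward rectifiers had 2 and 2. More were lower than higher among voltage-gated potassium pores (3 higher and 5 lower) and silent subunits (1 and 2). Each of these counts rests on few genes. Cacna2d1 was at least 6.22-fold higher in islets than in non-islet cells (adjusted p = 2.34e-10), Kcnmb2 at least 3.05-fold (adjusted p = 5.82e-09), Kcnu1 at least 2.87-fold (adjusted p = 2.45e-08) and Kcnk3 at least 1.60-fold (adjusted p = 9.1e-07); Kcnip1 was higher by 3.01 ± 0.11 (adjusted p = 7.18e-10). Of 54 genes, 26 were higher in islets (48.1%, against 41.6% of all genes tested), 16 were lower (29.6%, against 34.6%) and 12 did not pass, with medians of 0.30 and 0.10. Of the 26 higher genes, 23 were above background on all islet arrays, and 3 dim ones, Cacng4, Kcne2 and Kcnj3, on none. Equal noise moved the median of all genes from 0.10 to 1.07: all 26 higher calls stood and 2 of the 16 lower ones did (36 higher and 2 lower in all). Relative to that median, 16 of the 26 higher genes lay above it and 10 below, and all 16 lower genes lay below. The same arrays enter both scalings, and dim genes stay near 0 through the offset, below this median. That count is thus no separate support for the lower calls, and its share over all genes was not taken.

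Set against non-islet cells, induced cells had 4 of 7 tested calcium channel pores higher and 3 lower. They had 3 of 6 tested auxiliary calcium channel subunits higher and 2 lower, and 3 of 5 tested K2P channels higher and 1 lower. Auxiliary potassium channel subunits had 6 higher and 2 lower, and calcium- and sodium-activated channels, counted with Kcnu1, 3 and 1. More were lower than higher among inward rectifiers (1 higher and 4 lower), silent subunits (0 and 4), voltage-gated potassium pores (4 and 5) and sodium channel pores (0 and 1). These counts, too, rest on few genes. Cacna1h was at least 3.55-fold higher in induced than in non-islet cells, Cacna2d1 at least 3.53-fold, Cacna1c at least 2.89-fold, Kcnk3 at least 2.74-fold and Kcnu1 at least 1.73-fold, the adjusted p being 4.86e-09, 1.69e-09, 9.14e-09, 2.45e-08 and 7.37e-07. Of 54 genes, 24 were higher in induced cells (44.4%, against 40.9% of all genes tested), 23 were lower (42.6%, against 36.7%) and 7 did not pass, with medians of 0.14 and 0.07. Of the 23 lower genes, 12 were above background on all 3 non-islet arrays, 9 on 1 or 2 and 2 on none. Equal noise moved the median of all genes from 0.07 to 1.18 and so raised the differences as a whole: all 24 higher calls stood and 2 of the 23 lower ones did, Cacna1g and Kcnj8 (29 higher and 2 lower in all). Relative to that median, 14 of the 24 higher genes lay above it and 10 below, and all 23 lower genes lay below. Both scalings use the same arrays, and the offset keeps dim genes near 0 and so below a median of 1.18. The count is therefore no separate support for the lower calls, and its share over all genes was not taken. The induced and islet groups are each compared with the same 3 non-islet arrays.

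**Figure D3:**
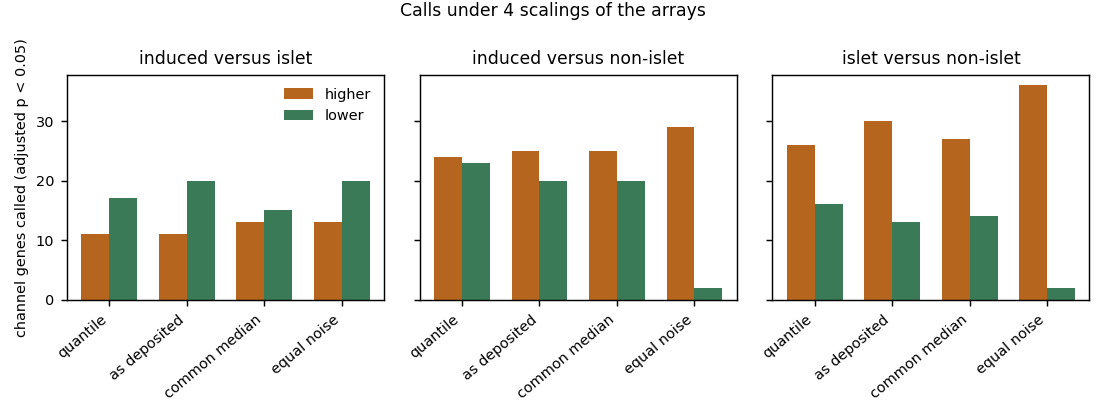
Number of channel genes called higher and lower (y axis) in each comparison under 4 ways of scaling the arrays: quantile normalization, values as deposited, a common median and equal noise. The comparison of induced cells with islets keeps a similar split, whereas lower calls against non-islet cells drop to 2 at equal noise.

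Genes with more signal in non-islet cells depend on this choice. On the quantile scale Kcnq1 was lower than in non-islet cells, with differences of -3.54 ± 0.08 in islets and -1.94 ± 0.08 in induced cells; at equal noise, the first was -1.48 (adjusted p = 2.41e-11) and the second turned to 0.44. Relative to the median of all genes at equal noise, Kcnq1 stood at -2.55 in islets and -0.74 in induced cells. Kcnk1, a weak inward rectifier of the K2P family, measured 227, 246 and 258 in non-islet cells, with differences of -1.59 in induced cells and -1.51 in islets; at equal noise these turned to 0.77 and 0.58, or -0.41 and -0.49 relative to all genes.

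Kcnn2, a small-conductance calcium-activated channel, measured 80.0, 83.3 and 56.8 in non-islet cells against 13.7, 13.6 and 13.3 in induced cells and 13.9, 13.7 and 13.7 in islets. The differences were -1.73 ± 0.12 and -1.71 ± 0.12, a second probe gave -1.57 and -1.61, and at equal noise the first probe turned to 0.09 and 0.04 with no call. Kcnh7, of the ether-a-go-go-related type, measured 44.0, 53.7 and 45.7 in non-islet cells, with differences of -1.54 for both other groups, and 0.00 and -0.03 at equal noise. Kcna6, a shaker-type pore, measured 34.1, 27.7 and 27.2 in non-islet cells, with differences of -1.29 in induced cells and -1.41 in islets. At equal noise only the latter kept its call (-0.22, adjusted p = 0.0194). The 3 other Kcna6 probes that passed gave -0.56, -0.13 and -1.08 for induced cells, with -0.13 not called. For islets they gave -0.30, 0.57 and -1.16, all called, with only 0.57 in the reverse direction. Cacna1g, a T-type pore, measured 13.9, 14.9 and 16.7 in non-islet cells and was at least 1.85-fold lower in induced cells (adjusted p = 1.63e-06), with -0.30 at equal noise (adjusted p = 0.00472). Cacna1b, the N-type pore, measured 17.0, 25.0 and 11.5 in non-islet cells, with differences of -1.06 in induced cells and -0.98 in islets that lost their calls at equal noise (-0.19 and -0.12). Cacna1b and Cacna1g passed the filter through non-islet cells alone, so that their p-values against that group are no separate support.

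Genes that act beside these channels in membrane excitability and calcium handling were looked at beside them. Of 37 listed, 32 had a probe and 22 passed; 3 had more signal in induced cells than in islets and 10 had less, by the test, with a median of -0.21, against 24.1% higher, 27.3% lower and a median of -0.04 over all genes. Rem2, an inhibitor of calcium channel activity, measured 412, 420 and 371 in induced cells, 47.9, 60.2 and 62.2 in islets and -0.387, -1.67 and 2.17 in non-islet cells, a difference of 2.59 ± 0.13 between induced cells and islets (adjusted p = 3.31e-08). Gem and Rrad, of the same protein family, were higher by 1.46 and 0.47. Trpm5, a calcium-activated cation channel, measured 79.5, 76.7 and 91.9 in induced cells and 740.2, 706 and 712 in islets, with a difference of -2.95 ± 0.11 (adjusted p = 3.49e-09). The pacemaker channels Hcn2 and Hcn3 were lower, with differences of -1.07 and -0.66, as was the sodium-calcium exchanger Slc8a1, at -1.0. Kcnj11 and Abcc8, the subunits of the beta cell ATP-sensitive channel, did not pass this test, at 0.34 (adjusted p = 0.0561) and -0.23 (adjusted p = 0.285).

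**Figure D4:**
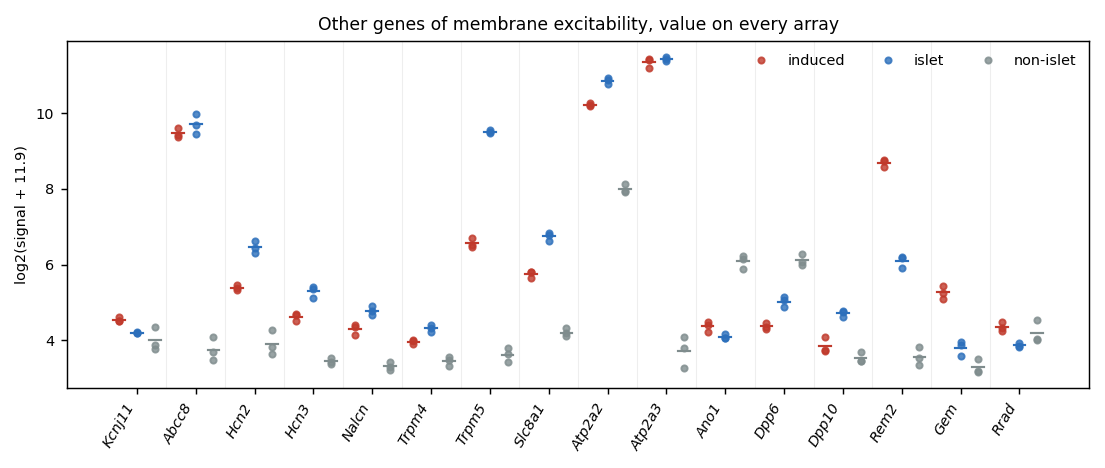
Log2(signal + 11.9) on every array (y axis) for 16 genes of membrane excitability outside the symbol rule (x axis), with induced, islet and non-islet arrays in separate colours and a bar at each mean. Rem2 stands higher in induced cells than in the other groups, and Trpm5 higher in islets than in the others. Kcnj11 and Abcc8 were not called between induced cells and islets, and the arrays of these groups overlap for Abcc8 but not for Kcnj11. Positions of different genes are not comparable.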

How the data were processed

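Trizol RNA of 9 samples was amplified (Ambion TotalPrep), labelled with biotin and hybridized to Illumina mouse bead arrays, per the labels. The deposited intensity values, linear and background-subtracted, were made by the authors with BeadStudio, per the submitters' processing notes; version and settings are not given in the sources used here. A further table with 36 columns named by slide position, which no label ties to a sample, was not used. Its 2 slides held 3 and 6 arrays, and which sample lay on which slide is not known. Whether slide goes with group could therefore not be checked. The mean was 74.17 on every array.

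Intensities were quantile-normalized, 11.9 was added (which sets the lowest value to 1) before log2 was taken. Noise was estimated per array from values below 0 mirrored at 0, and a probe above 1.645 noise SD counted as above background. The planned filter was detection p-values, which could not be tied to samples. Probe symbols came from the platform annotation (20984 probes with 1 symbol, 1 with several, 3628 with none); all 98 channel genes were found in the RefSeq gene table (GRCm38.p6) under the same symbol. Where a gene's probe was at background on every array of a group and above it in the other, the fold is a lower bound against the higher of its own signal and the lowest signal above background on each array.

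Groups were compared with limma 3.58.1 in R 4.3.3 (1 mean per group, 9 arrays, 6 residual degrees of freedom), two-sided. The 3 groups shared 1 estimate of spread per probe. The median SD of the tested channel genes was 0.0818 in induced cells, 0.0838 in islets and 0.188 in non-islet cells. Errors between induced cells and islets thus also hold the spread of the non-islet arrays. P-values were adjusted by Benjamini-Hochberg over all 13928 probes that passed the filter, at a threshold of 0.05. The procedure was tested on simulated data. The members, gene lists and marker lists were chosen with earlier results of these data known. Values on every array are given for a textbook list of islet channel genes and, per comparison, the 5 largest rises and 5 largest falls among calls whose arrays do not overlap; other members are given by count or difference. Alternatives were 3 other scalings, offsets of 16 and 50, 3 other filters, a trended variance, the compared groups alone, a replicate block, another choice of probe and leaving out each array.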

Additional observations from a re-analysis of the deposited data

How the results depend on the processing

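The comparison of induced cells with islets gave 11 higher and 17 lower channel genes. With genes required to be above background on all 9 arrays, these became 1 and 3 of the 10 genes that then remained. Against non-islet cells, the 24 higher genes in induced cells became 2 under that filter, and the 23 lower genes became 8; the lower genes became 12 above 3 noise SD, 15 with the compared groups alone and 2 at equal noise. For islets against non-islet cells, the 26 higher genes became 2 on all 9 arrays, and the 16 lower genes became 7 there, 8 above 3 noise SD and 2 at equal noise. Genes above background in non-islet cells numbered 6 above 3 noise SD, in place of 14. Fewer genes were tested under the filters; for equal noise the cause was not tested.

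Directions turned at equal noise in induced against non-islet cells for Cacna1f (0.07), Cacnb1 (0.04), Cacng1 (0.06), Kcna3 (0.11), Kcne4 (0.04), Kcnj14 (0.14), Kcnj6 (0.09), Kcnk1 (0.77), Kcnn2 (0.09), Kcnq1 (0.44), Kcns1 (0.03), Kcns2 (0.03) and Scn8a (0.10). In islets against non-islet cells they turned for Cacnb1 (0.20), Cacng1 (0.14), Kcna3 (0.19), Kcnc2 (0.06), Kcne4 (0.43), Kcnj14 (0.13), Kcnj6 (0.08), Kcnk1 (0.58), Kcnn2 (0.04), Kcns2 (0.12) and Scn8a (0.31). Between induced cells and islets Kcnk1 turned to 0.19 at a common median. Adjusted p for induced cells against islets lost its call for Cacnb2 without islet array 1, for Kcnab2 without any of 5 arrays, at a common median, with no filter and at an offset of 50, and for Kcnh5 at a common median; Cacna1a, Cacna1d, Cacna1f, Cacna2d2, Kcna2, Kcnn1, Scn3a and Scn8a gained one with the 2 groups alone, some also at other scalings. The cause was not tested. Over the tested channel genes and single arrays left out, 6, 12 and 14 calls were lost in the 3 comparisons, in the order given. Against non-islet cells, 6 calls were gained for induced cells and 11 for islets.

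With a replicate block the counts were 11 higher and 17 lower, 24 and 23, and 25 and 17 in the 3 comparisons, and 1 call was gained (Kcnab1) and 1 lost (Cacng4) in islets against non-islet cells. Deviations of same-numbered samples from their group means had correlations from -0.116 to 0.189, with 2 of 9 over 0.1, against -0.216 to 0.207 for other pairs. The ranges overlap, and with 3 arrays per group this cannot settle whether the numbers pair the samples. Noise SD was 4.40 to 4.82 on non-islet arrays against 1.48 to 1.56 and 1.88 to 2.05 on induced and islet arrays, which limits what dim genes show there.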

Other observations

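Kcnmb1 lies within the span of Kcnip1 on mouse chromosome 11 (GRCm38.p6), with Kcnip1 from 33629339 to 33993348 and Kcnmb1 from 33962955 to 33973641. The 2 genes differed in opposite directions between induced cells and islets: Kcnip1 by -1.72 and Kcnmb1 by 0.73, both past the test. Whether transcripts of one gene reach the probe of the other was not tested.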
